A study of Mus musculus with 6 samples.

Results

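The collagen genes of the mouse small intestine were examined in RNA sequencing of whole tissue from 3 mice labelled TLR4ΔIEC and 3 mice labelled wild type (WT). The members were all genes of the deposited table whose symbol has the form Col, a number, the letter a and a number. This gave 44 of the 54012 genes in the table. By the chain they encode, 11 are fibrillar, 8 belong to the basement membrane (the type IV chains and types XV and XVIII), and 25 are other collagens.

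The study asked what depletion of intestinal TLR4, the receptor for bacterial lipopolysaccharide, does to gene expression of the small intestine. The mice of both groups were 8 to 12 weeks old and their samples carry a shared collection date. The labels call the tissue intestinum. The driver of the deletion, the strain, the stretch of intestine and any allele carried by the WT mice are not stated in the labels. Levels are in TPM, a share of all transcripts that takes transcript length into account and has an equal total in every library, so that levels of different collagen genes can be set side by side.

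Collagens are trimeric proteins wound into a triple helix. Fibrillar collagens pack into the fibrils of the lamina propria and submucosa and are made chiefly by fibroblasts. Type IV collagen forms the sheet-like network of basement membranes under the epithelium and around vessels and muscle, and the remaining types coat fibrils, form beaded filaments or span cell membranes. Chains are hydroxylated and folded in the endoplasmic reticulum, trimmed after secretion and then cross-linked.

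No tested collagen gene differed between the genotypes by more than the spread between libraries allowed the test to call. The test took in the 13458 genes whose average reached 1 TPM, among them 21 of the 44 collagens. By limma with Benjamini-Hochberg adjustment over all tested genes, 0 of 21 collagens passed an adjusted p of 0.05, where 0.119% of all tested genes did (0.0446% higher and 0.0743% lower). At an unadjusted p under 0.05 the count was again 0 of 21, against 21.2% of all tested genes (18.4% higher and 2.77% lower). The 3 values of TLR4ΔIEC lay wholly above or below the 3 of WT in 0 of 21 collagens, against 27.6% of all tested genes (24.1% higher and 3.53% lower). These shares over all genes depend on the scaling. At an unadjusted p under 0.05 (limma) there were 2847 genes here and 1643 to 1870 under the 4 other scalings. The smallest adjusted p of a collagen was 0.311, for Col23a1.

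What the collagens showed was a large spread between animals. The summed level of the 44 genes was 383.5, 118.5 and 224.1 TPM in the libraries labelled TLR4ΔIEC, against 364.2, 253.1 and 183.2 TPM in WT. Replicate 1 of either genotype was high and TLR4ΔIEC replicate 2 was lowest, so the groups overlapped throughout. TLR4ΔIEC replicate 2 was the lowest library in 20 of the 21 tested collagens, where it was the lowest in 31.2% of all tested genes. The exception, Col6a4, was lowest in WT replicate 3, as were 28.7% of all tested genes. The highest library was TLR4ΔIEC replicate 1 in 12 members, WT replicate 1 in 5, TLR4ΔIEC replicate 3 in 3 and WT replicate 2 in 1. The median residual SD on the log2(TPM + 1) scale was 0.59 over the 21 collagens, against 0.26 over all tested genes. Among the marker lists given further below it was 0.86 for smooth muscle, 0.62 for fibroblasts, 0.62 for leukocytes and 0.41 for endothelium. TLR4ΔIEC replicate 2 was also the lowest library in all 8 smooth muscle and all 7 tested endothelial markers. The wide spread and the low replicate were thus not particular to the collagens.

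**Figure D1:**
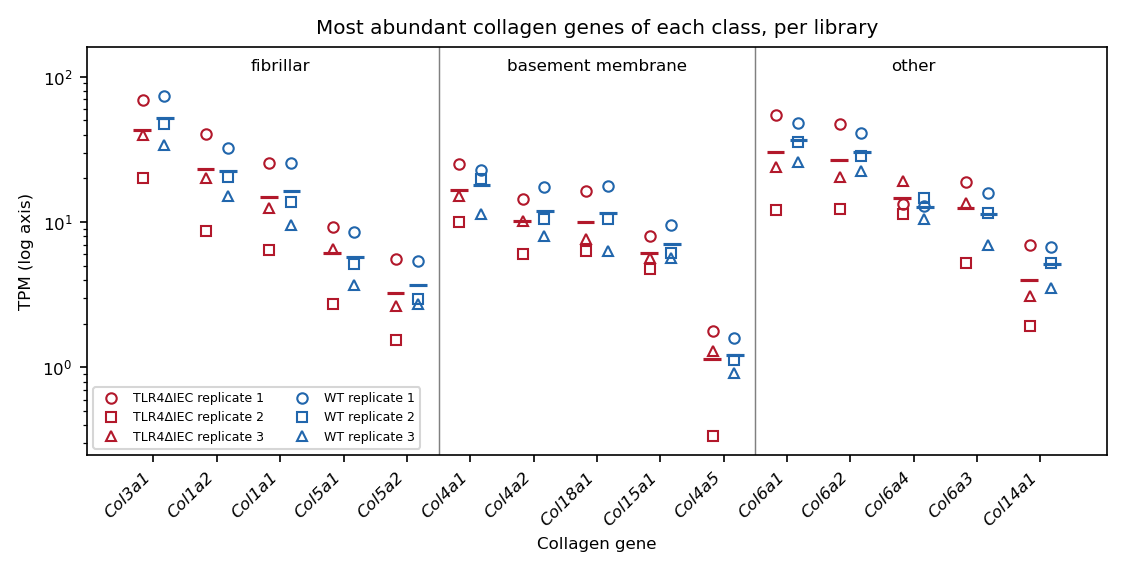
TPM on a log axis of the 5 most abundant tested collagen genes of each class, with 3 libraries labelled TLR4ΔIEC (red) and 3 WT libraries (blue) per gene and a bar at each group mean. The values of the groups overlap in each of the 15 genes shown, and Col3a1 is the highest in all 6 libraries.

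TLR4ΔIEC replicate 2 had 12221 genes at 1 TPM or more, against 13561 and 13634 in the other libraries labelled TLR4ΔIEC and 13197 to 13390 in WT. Tlr4 itself had 1.29, 1.22 and 4.81 TPM in the TLR4ΔIEC libraries, against 0.65, 0.57 and 0.70 TPM in WT. The level of the targeted gene thus goes against the label (limma adjusted p = 0.243), in a tissue with many cell types and with no values per exon, so every direction here compares libraries by their labels. No read totals can be had from TPM, so depth is unknown. A lower collagen level in whole tissue can be fewer cells of a type, less RNA per cell or, as TPM are shares, more RNA from other cells. These cannot be told apart.

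Among the fibrillar genes, Col3a1 was the most abundant collagen in all 6 libraries. It encodes the single chain of type III collagen, found in distensible tissues such as gut wall (chromosome 1, 45311538 to 45349706, plus strand, GRCm38). Col3a1 had 69.2, 20.2 and 40.0 TPM in TLR4ΔIEC, against 73.2, 47.3 and 34.1 TPM in WT. It averaged 43.1 ± 24.7 TPM in TLR4ΔIEC and 51.6 ± 19.9 TPM in WT (SD, n = 3 each). Its log2 fold change, TLR4ΔIEC minus WT on the log2(TPM + 1) scale, was −0.35 (SE 0.46, 95% interval −1.43 to 0.73, limma adjusted p = 0.705). The spread within either group was larger than the difference between them.

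Type I collagen, the main fibril protein of connective tissue, is built from the products of Col1a1 (chromosome 11, 94936224 to 94953042, plus strand) and Col1a2 (chromosome 6, 4504814 to 4541544, plus strand). Col1a1 had 25.57, 6.45 and 12.6 TPM in TLR4ΔIEC, against 25.55, 13.7 and 9.61 TPM in WT. Col1a2 had 40.7, 8.71 and 20.2 TPM in TLR4ΔIEC, against 32.4, 20.3 and 15.1 TPM in WT. The highest and the lowest value of each gene both lay in libraries labelled TLR4ΔIEC. Within TLR4ΔIEC the highest library was 3.96 times the lowest for Col1a1 and 4.67 times for Col1a2, and within WT 2.66 and 2.14 times. The log2 fold changes were −0.21 for Col1a1 (SE 0.51) and −0.14 for Col1a2 (SE 0.52), with limma adjusted p of 0.855 and 0.902. The 95% intervals, −1.40 to 0.99 and −1.38 to 1.10, reach about 1 log2 unit on either side of 0.

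Type V collagen is incorporated into type I fibrils and starts their assembly. Col5a1 (chromosome 2, 27886425 to 28039514, plus strand) had 9.25, 2.71 and 6.54 TPM in TLR4ΔIEC, against 8.50, 5.17 and 3.67 TPM in WT. Col5a2 lies next to Col3a1, tail to tail with a gap of 24614 bases (chromosome 1, 45374321 to 45503282, minus strand), and had 5.56, 1.55 and 2.65 TPM in TLR4ΔIEC, against 5.37, 2.94 and 2.73 TPM in WT. Both followed the library pattern of type I, with log2 fold changes of 0.02 for Col5a1 (limma adjusted p = 0.983) and −0.21 for Col5a2 (limma adjusted p = 0.802). The value of Col5a1 turned negative under each of the 4 other scalings, at −0.26 to −0.03. Col27a1, a fibrillar chain best known from cartilage, had 1.5, 0.36 and 1.73 TPM in TLR4ΔIEC, against 1.33, 1.33 and 0.56 TPM in WT. Its highest library was TLR4ΔIEC replicate 3, unlike the other 5 fibrillar members (log2 fold change 0.04, negative under 3 of the 4 other scalings, limma adjusted p = 0.956).

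The letters just before the start sites of 3 members that shared the low value in TLR4ΔIEC replicate 2 are shown because their make-up differs widely. Each line gives the 250 bases before the RefSeq start in GRCm38.p6, 5′ to 3′ on the gene's own strand, and capitals mark matches on either strand. The motifs were the TATA box, spelled TATAAA, the GC box, spelled GGGCGG, and the box spelled CCAAT, which do not overlap in these windows. They are chr1:45311288-45311537 for Col3a1, chr2:27886175-27886424 for Col5a1, and chr1:90843972-90844221 on the minus strand for Col6a3, a chain of type VI described below.
Col3a1: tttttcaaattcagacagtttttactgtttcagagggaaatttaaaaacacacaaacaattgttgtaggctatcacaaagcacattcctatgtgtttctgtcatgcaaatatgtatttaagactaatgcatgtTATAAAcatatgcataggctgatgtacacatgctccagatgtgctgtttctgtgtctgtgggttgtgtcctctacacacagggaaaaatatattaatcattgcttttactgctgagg
Col5a1: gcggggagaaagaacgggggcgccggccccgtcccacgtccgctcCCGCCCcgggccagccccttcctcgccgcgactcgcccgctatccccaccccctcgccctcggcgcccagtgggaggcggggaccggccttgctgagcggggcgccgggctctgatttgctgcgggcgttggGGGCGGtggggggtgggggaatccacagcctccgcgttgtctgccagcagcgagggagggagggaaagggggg
Col6a3: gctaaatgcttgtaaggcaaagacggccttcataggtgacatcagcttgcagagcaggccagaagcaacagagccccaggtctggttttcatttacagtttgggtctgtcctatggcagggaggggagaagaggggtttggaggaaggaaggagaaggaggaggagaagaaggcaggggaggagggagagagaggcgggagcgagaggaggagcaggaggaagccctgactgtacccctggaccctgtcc
The Col3a1 window holds a single TATAAA and is 35.2% G and C, the Col5a1 window holds a GC box on either strand and is 76.4% G and C, and none of these letters is in the Col6a3 window, at 57.2%. Of 32851 such windows in the RefSeq table, 12.4% hold TATAAA, 32.7% GGGCGG and 33.8% CCAAT. Of 19 windows that matched 17 of the tested collagens, 2, 12 and 7 hold them. A match is a description of the letters and not a binding site.

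**Figure D2:**
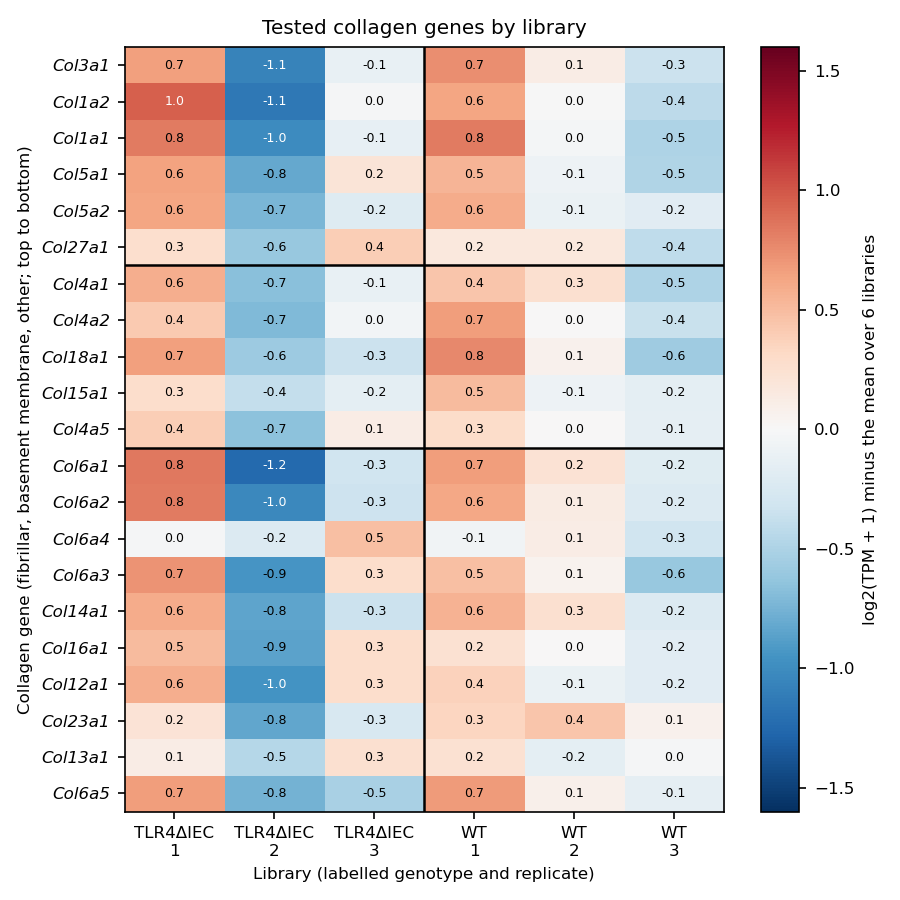
For the 21 tested collagen genes, log2(TPM + 1) in each library minus the gene's mean over the 6 libraries, with libraries labelled TLR4ΔIEC left of WT and horizontal lines between fibrillar, basement membrane and other collagens. The column of TLR4ΔIEC replicate 2 is negative in each gene, and the row of Col6a4 is the flattest of type VI.

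In the basement membrane, Col4a1 and Col4a2 encode the chains of the most widespread type IV network. The genes are divergent, and in GENCODE M21 their first exons overlap by 22 bases on chromosome 8 (Col4a1, 11198423 to 11312826, minus strand, and Col4a2, 11312805 to 11449287, plus strand). The overlap is shown on the plus strand because both start sites lie in it, with a GC box in capitals (chr8:11312805-11312826).
Col4a1 and Col4a2 overlap: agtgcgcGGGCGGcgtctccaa
Col4a1 had 24.98, 9.98 and 15.1 TPM in TLR4ΔIEC, against 22.6, 19.8 and 11.4 TPM in WT. Col4a2 had 14.4, 6.07 and 10.2 TPM in TLR4ΔIEC, against 17.4, 10.5 and 7.99 TPM in WT. Both genes were again lowest in TLR4ΔIEC replicate 2 and the groups overlapped. The log2 fold changes were −0.14 for Col4a1 (SE 0.36, 95% interval −0.997 to 0.72) and −0.21 for Col4a2 (SE 0.36, 95% interval −1.06 to 0.63), with limma adjusted p of 0.866 and 0.775. The ratio of Col4a1 to Col4a2 was 1.73, 1.64 and 1.48 in TLR4ΔIEC, against 1.31, 1.88 and 1.43 in WT, so the pair moved together in level but not in a fixed proportion. The sources used here do not say if counting used strand, so reads from the shared bases cannot be placed.

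Col18a1 and Col15a1 encode the multiplexins of the basement membrane zone, and the tail of the Col18a1 product is the angiogenesis inhibitor endostatin. Col18a1 (chromosome 10, 77052178 to 77166548, minus strand) had 16.3, 6.30 and 7.64 TPM in TLR4ΔIEC, against 17.6, 10.4 and 6.36 TPM in WT. The ratio of its highest to its lowest library was 2.59 in TLR4ΔIEC and 2.77 in WT, and it was the single tested collagen whose WT ratio was the larger. In 20 of the 21 tested collagens the ratio was larger in TLR4ΔIEC, against 72.9% of the tested genes above 0 in all libraries. Col15a1 (chromosome 4, 47208161 to 47313167, plus strand) had 8.07, 4.73 and 5.70 TPM in TLR4ΔIEC, against 9.57, 6.08 and 5.68 TPM in WT, a narrower range than that of type IV. Both log2 fold changes were −0.17 (limma adjusted p = 0.855 for Col18a1 and 0.738 for Col15a1).

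Col4a5 encodes a chain of the type IV networks of kidney and smooth muscle basement membranes (chromosome X, 141475385 to 141689234, plus strand). It had 1.77, 0.34 and 1.30 TPM in TLR4ΔIEC, against 1.59, 1.12 and 0.92 TPM in WT (log2 fold change −0.10, limma adjusted p = 0.888). Its divergent neighbour Col4a6, 1308 bases away, had 1.10, 0.12 and 0.50 TPM in TLR4ΔIEC, against 0.74, 0.47 and 0.39 TPM in WT and, with a mean of 0.553 TPM, was the highest member below the level needed for the test. TLR4ΔIEC replicate 2 was the lowest and TLR4ΔIEC replicate 1 the highest library of both.

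Type VI collagen, which forms beaded filaments beside basement membranes and around cells, made up most of the third class. Col6a1 (chromosome 10, 76708792 to 76726168, minus strand) had 54.4, 12.0 and 23.8 TPM in TLR4ΔIEC, against 48.2, 35.4 and 26.0 TPM in WT. Col6a2, its neighbour at 85161 bases (76595762 to 76623630, minus strand), had 47.3, 12.2 and 20.5 TPM in TLR4ΔIEC, against 40.7, 28.6 and 22.4 TPM in WT. Col6a3 (chromosome 1, 90765923 to 90843971, minus strand) encodes the largest of the chains that join the products of these genes and had 18.7, 5.24 and 13.6 TPM in TLR4ΔIEC, against 15.8, 11.5 and 6.90 TPM in WT. All of these were highest in TLR4ΔIEC replicate 1 and lowest in TLR4ΔIEC replicate 2. The log2 fold changes were −0.48 for Col6a1 (SE 0.50), −0.36 for Col6a2 (SE 0.46) and 0.04 for Col6a3 (SE 0.46), the last negative under each of the 4 other scalings, with limma adjusted p of 0.633, 0.703 and 0.972.

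Col6a4 departed from the other collagens. It encodes an alternative chain of type VI (chromosome 9, 105989454 to 106096783, minus strand) and had 13.2, 11.4 and 19.1 TPM in TLR4ΔIEC, against 12.9, 14.5 and 10.5 TPM in WT. Its highest library was TLR4ΔIEC replicate 3. The highest of the 6 values was 1.82 times the lowest, the narrowest range of the 21 members, whose other ranges were 2.02 to 7.88 times. As a share of the summed collagen TPM, Col6a4 made up 3.45%, 9.61% and 8.53% in TLR4ΔIEC, against 3.53%, 5.74% and 5.74% in WT. Its log2 fold change of 0.17 (SE 0.22, 95% interval −0.35 to 0.69, limma adjusted p = 0.701) was about that of all tested genes, and it was negative under 3 of the 4 other scalings. The next gene of the same tandem cluster, Col6a5, 28810 bases away on the same strand, followed the common pattern at 2.56, 0.33 and 0.57 TPM in TLR4ΔIEC, against 2.60, 1.37 and 1.03 TPM in WT (log2 fold change −0.41, limma adjusted p = 0.630). The third, Col6a6, was listed at 0 in 5 libraries and at 0.01 TPM in TLR4ΔIEC replicate 3.

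Of the remaining tested members, Col14a1, Col16a1 and Col12a1 encode collagens that sit on fibril surfaces. Col14a1 had 6.93, 1.93 and 3.12 TPM in TLR4ΔIEC, against 6.69, 5.26 and 3.50 TPM in WT (log2 fold change −0.39, limma adjusted p = 0.608). Col16a1 had 6.23, 1.83 and 5.22 TPM in TLR4ΔIEC, against 5.06, 4.11 and 3.49 TPM in WT. Col12a1 had 5.90, 1.38 and 4.61 TPM in TLR4ΔIEC, against 4.94, 3.27 and 3.07 TPM in WT. TLR4ΔIEC replicate 1 was the highest and TLR4ΔIEC replicate 2 the lowest library of each of these genes.

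The transmembrane collagens included the member with the smallest p-value. Col23a1 (chromosome 11, 51289920 to 51583918, plus strand) had 3.27, 1.07 and 2.08 TPM in TLR4ΔIEC, against 3.68, 4.0 and 2.85 TPM in WT. TLR4ΔIEC replicate 1 lay within the WT values and TLR4ΔIEC replicates 2 and 3 below them. It averaged 2.14 ± 1.10 TPM in TLR4ΔIEC and 3.51 ± 0.594 TPM in WT (SD, n = 3 each). The difference on the log2(TPM + 1) scale was −0.58 (SE 0.29, 95% interval −1.27 to 0.12, limma unadjusted p = 0.0905 and adjusted p = 0.311). Its unadjusted p fell below 0.05 under median-of-ratios scaling (0.0279), with quantile normalization (0.0302), without alpha-defensin, mitochondrial and 18S-like genes (0.0361) and with array weights (0.0476) and without TLR4ΔIEC replicate 1 (0.0188), and over all alternatives its adjusted p was 0.113 to 0.593. Col13a1, found at cell contacts, had 2.70, 1.48 and 3.06 TPM in TLR4ΔIEC, against 3.03, 2.06 and 2.34 TPM in WT (log2 fold change −0.05).

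The other 23 members were below the test's level, 5 fibrillar, 3 of the basement membrane and 15 of the third class. Their mean levels were at most 0.553 TPM, and the single value above 1 TPM was 1.10 TPM, for Col4a6 in TLR4ΔIEC replicate 1. The cartilage collagen gene Col2a1 and the hypertrophic cartilage gene Col10a1 were listed at 0 in 5 of the 6 libraries, at 0.02 and 0.04 TPM in TLR4ΔIEC replicate 2. The hemidesmosome collagen gene Col17a1 had at most 0.12 TPM, and Col7a1, which encodes the anchoring fibrils of skin, had 0.32, 0.45 and 0.25 TPM in TLR4ΔIEC, against 0.20, 0.55 and 0.04 TPM in WT. Of the 23, 6, counting Col2a1, Col10a1 and Col6a6, were listed at 0 in at least 1 library.

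By mean TPM over the 6 libraries the levels ran Col3a1 (47.3), Col6a1 (33.3), Col6a2 (28.6), Col1a2 (22.9), Col4a1 (17.3) and Col1a1 (15.6). Col3a1 was above Col6a1 and Col6a2 above Col1a2 in all 6 libraries, Col6a1 above Col6a2 and Col1a2 above Col4a1 in 5, and Col4a1 above Col1a1 in 4. Col1a1 was above Col6a4, the next by mean, in only 2. Among the next ranks, Col6a3 and Col4a2 (12.0 and 11.1 TPM) and Col4a2 and Col18a1 (11.1 and 10.8 TPM) were each above the other in 3 libraries, so they did not differ beyond their spread. Lower down, Col18a1 was above Col15a1, Col16a1 above Col12a1 and Col13a1 above Col6a5 in all 6.

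The fibrillar sum was 153.0, 40.5 and 84.7 TPM in TLR4ΔIEC, against 147.8, 92.3 and 66.7 TPM in WT. The basement membrane sum was 66.9, 27.6 and 40.7 TPM in TLR4ΔIEC, against 69.8, 48.9 and 32.9 TPM in WT. The sum of the other collagens was 163.6, 50.4 and 98.7 TPM in TLR4ΔIEC, against 146.5, 111.9 and 83.6 TPM in WT. The ratios of the group means, TLR4ΔIEC over WT, were 0.907, 0.891 and 0.914 for the fibrillar, basement membrane and other classes, each with overlapping groups. On the log2 scale these were −0.14, −0.17 and −0.13. Without TLR4ΔIEC replicate 1 they were −0.71, −0.57 and −0.61. The direction turned without TLR4ΔIEC replicate 2, to 0.22, 0.09 and 0.20, and without WT replicate 1, to 0.22, 0.14 and 0.09.

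The make-up of the collagen RNA was steadier than its level. Fibrillar genes took 39.9%, 34.2% and 37.8% of the summed collagen TPM in TLR4ΔIEC, against 40.6%, 36.5% and 36.4% in WT. The basement membrane share was 17.4%, 23.3% and 18.2% in TLR4ΔIEC, against 19.2%, 19.3% and 18.0% in WT, so that the library with the least collagen, TLR4ΔIEC replicate 2, had the highest basement membrane share and the lowest fibrillar share. Its ratio of fibrillar to basement membrane TPM was 1.47, against 2.29 and 2.08 in the other libraries labelled TLR4ΔIEC and 1.89 to 2.12 in WT.

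**Figure D3:**
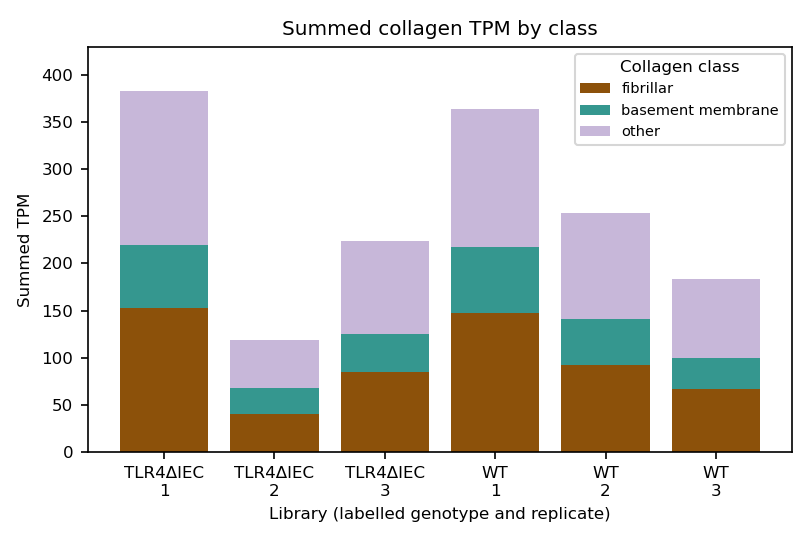
Summed TPM of the fibrillar, basement membrane and other collagen genes in each library, stacked, with libraries labelled TLR4ΔIEC left of WT. The stacks reach 383.5, 118.5 and 224.1 TPM in TLR4ΔIEC and 364.2, 253.1 and 183.2 TPM in WT. The shares of the classes vary less than these sums, with a basement membrane share of 23.3% in TLR4ΔIEC replicate 2 and 17.4% to 19.3% in the other libraries.

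The ratio of a pair of genes does not move with a scaling of the whole library. The ratio of Col1a1 to Col1a2 was 0.629, 0.741 and 0.623 in TLR4ΔIEC, against 0.790, 0.671 and 0.635 in WT. Col1a1 stood to Col3a1 at 0.370, 0.320 and 0.315 in TLR4ΔIEC, against 0.349, 0.288 and 0.282 in WT. Both ratios overlapped between the genotypes. The ratio of Col6a1 to Col6a2 was 1.151, 0.9845 and 1.161 in TLR4ΔIEC, against 1.183, 1.236 and 1.164 in WT, so the groups lay side by side without overlapping, by a narrow margin. Of the ratios added after the values were seen, Col5a1 to Col5a2 was 1.66, 1.75 and 2.47 in TLR4ΔIEC, against 1.58, 1.76 and 1.34 in WT, and overlapped. The ratio of Col6a3 to Col6a1 was 0.344, 0.435 and 0.572 in TLR4ΔIEC, against 0.328, 0.325 and 0.265 in WT, and did not overlap. How often ratios of other gene pairs fail to overlap was not computed, and no ratio was tested. Neither this gap nor that of Col6a1 to Col6a2 is therefore read as a genotype difference.

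By class, the median log2 fold change was −0.17 over 6 fibrillar, −0.17 over 5 basement membrane and −0.21 over 10 other collagens, against 0.16 over all tested genes. Of the 21 collagens 17 had a negative value, against 31.9% of all tested genes. The median over all 21 was −0.17, and it was −0.48 without TLR4ΔIEC replicate 1, 0.16 without TLR4ΔIEC replicate 2, 0.06 without WT replicate 1 and −0.38 without WT replicate 3, so single libraries set its sign and size. Without TLR4ΔIEC replicate 2 only 4 of 21 were negative. Other scalings lowered the median of all genes to between −0.13 and 0.02 and that of the collagens to between −0.47 and −0.31. Under median-of-ratios scaling and without alpha-defensin, mitochondrial and 18S-like genes 21 of 21 were negative.

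**Figure D4:**
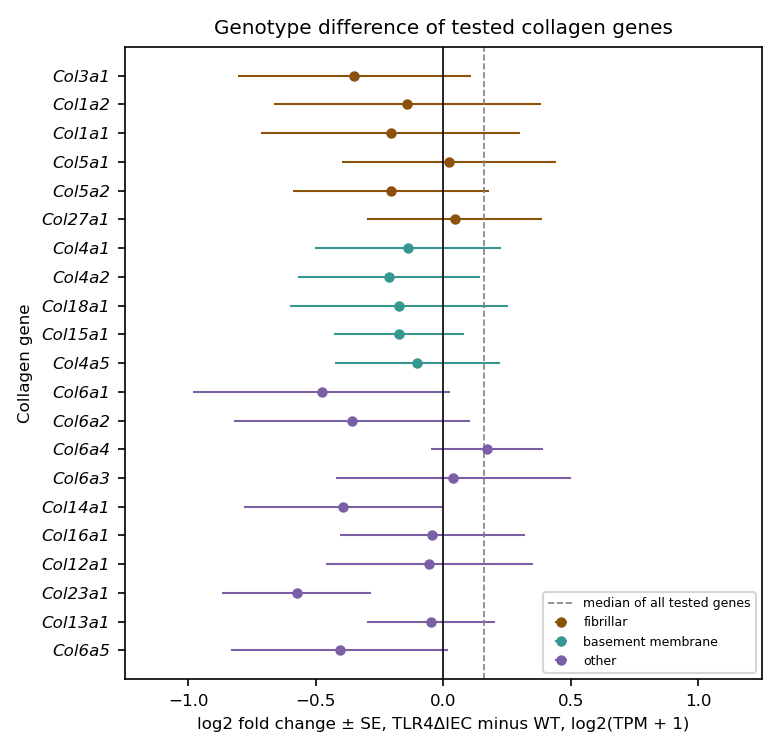
Log2 fold change with its SE, TLR4ΔIEC minus WT on the log2(TPM + 1) scale, for the 21 tested collagen genes coloured by class, with a dashed line at the median of all tested genes, 0.16. The values run from −0.58 for Col23a1 to 0.17 for Col6a4, and adjusted p are 0.311 to 0.983.

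Genes that make, process and bind collagen were taken from 8 lists with 112 genes in the table, 84 of them tested. None passed an adjusted p of 0.05 (limma). At an unadjusted p under 0.05, 9 were higher and 3 lower, against 18.4% and 2.77% of all tested genes. The groups did not overlap in 12 higher and 4 lower genes, against 24.1% and 3.53%. The median log2 fold change was 0.02 for hydroxylation and glycosylation (12 tested), 0.03 for folding and secretion (8) and −0.02 for processing and cross-linking (6). It was −0.49 for fibril-associated proteoglycans (11), −0.22 for basement membrane partners (16), −0.08 for receptors (8), −0.41 for breakdown (11) and −0.10 for regulators around TGF-beta (12), against 0.16 over all tested genes. P4hb, the protein disulfide isomerase subunit of prolyl 4-hydroxylase, had 462.7, 858.9 and 540.0 TPM in TLR4ΔIEC, against 641.2, 726.3 and 568.3 TPM in WT, and was highest where collagen was lowest. Ppib, the cyclophilin of the endoplasmic reticulum, had a log2 fold change of 0.21 (limma adjusted p = 0.514, negative under quantile normalization and without alpha-defensin, mitochondrial and 18S-like genes), and the lysyl hydroxylase gene Plod3 of 0.60 (limma adjusted p = 0.248). Sparc, a collagen-binding matrix protein, followed the collagens at 75.3, 28.0 and 52.3 TPM in TLR4ΔIEC, against 87.5, 62.4 and 45.2 TPM in WT. The coat genes of secretory vesicles had values of opposite sign, with log2 fold changes of 0.26 for Sec23a (negative under quantile normalization and without alpha-defensin, mitochondrial and 18S-like genes) and −0.55 for Sec24d (limma adjusted p = 0.277 and 0.136).

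Of the extracellular processing genes, Bmp1, the procollagen C-proteinase, averaged 8.34 ± 2.56 TPM in TLR4ΔIEC and 4.28 ± 1.82 TPM in WT (SD, n = 3 each, log2 fold change 0.83, limma adjusted p = 0.187). Its enhancer Pcolce followed the collagens instead, at 13.5, 3.62 and 7.98 TPM in TLR4ΔIEC, against 10.7, 7.45 and 6.0 TPM in WT. The cross-linking transglutaminase Tgm2 had a log2 fold change of 0.03, which was negative under each of the 4 other scalings. Decorin (Dcn), a proteoglycan of collagen fibrils, had a wide range, at 89.0, 9.44 and 45.1 TPM in TLR4ΔIEC, against 66.0, 58.9 and 59.8 TPM in WT. Biglycan (Bgn) and fibulin (Fbln1) had log2 fold changes of −0.50 and −0.37 (limma adjusted p = 0.522 and 0.262). All 11 tested genes of this fibril-associated list were lowest in TLR4ΔIEC replicate 2, like the collagens.

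Among partners of collagen in the basement membrane, Lama3 and Lamb3 encode chains of the laminin that anchors epithelia. Lama3 had 13.9, 15.0 and 13.1 TPM in TLR4ΔIEC, against 6.58, 3.98 and 5.86 TPM in WT (log2 fold change 1.23, SE 0.19, limma adjusted p = 0.0800). Lamb3 had 93.3, 80.5 and 51.5 TPM in TLR4ΔIEC, against 35.6, 11.4 and 6.82 TPM in WT (log2 fold change 2.28, SE 0.54, limma adjusted p = 0.108). The groups did not overlap in either gene, and neither passed. Lama3 passed with array weights (limma adjusted p = 0.0499) and Lamb3 without WT replicate 1 (limma adjusted p = 0.0415). Agrn, a heparan sulfate proteoglycan, had a log2 fold change of 0.91 (limma adjusted p = 0.186). The type IV chains beside them overlapped between genotypes.

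Among the receptors, Ddr1, a collagen-activated kinase of epithelia, had 35.8, 41.7 and 39.7 TPM in TLR4ΔIEC, against 27.2, 20.3 and 21.9 TPM in WT (log2 fold change 0.74, SE 0.15, limma adjusted p = 0.0941). Itgb1, the beta chain of the collagen-binding integrins, had 89.8, 82.0 and 92.7 TPM in TLR4ΔIEC, against 69.2, 65.2 and 67.3 TPM in WT (log2 fold change 0.38, limma adjusted p = 0.152). Over all alternatives the log2 fold change of Itgb1 was 0.06 to 0.44, and the median over all tested genes in the main fit was 0.16. Of the proteases, the gelatinase Mmp9 had 2.22, 0.42 and 2.63 TPM in TLR4ΔIEC, against 6.58, 6.82 and 5.51 TPM in WT (log2 fold change −1.51, SE 0.36, limma adjusted p = 0.108). The other gelatinase, Mmp2, followed the collagens, with a log2 fold change of −0.41, and Pepd, the peptidase that releases proline from collagen fragments, had 0.28 (negative without alpha-defensin, mitochondrial and 18S-like genes). Of the regulators around TGF-beta, the growth factor gene Pdgfa and Smad4, which encodes a transcription factor of TGF-beta signalling, had log2 fold changes of 0.45 and −0.23 (limma adjusted p = 0.219 and 0.622).

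The summed markers of fibroblasts, endothelium, smooth muscle and leukocytes were, like the collagens, lowest in TLR4ΔIEC replicate 2. Outside that library their order differed between lists. The summed level of 10 fibroblast markers was 200.5, 49.1 and 120.6 TPM in TLR4ΔIEC, against 174.4, 162.3 and 137.6 TPM in WT, and 7 of the 9 tested were lowest in TLR4ΔIEC replicate 2. Of these markers Dcn and Lum also stand in the fibril-associated list. The sum of 8 endothelial markers was 89.6, 47.5 and 64.8 TPM in TLR4ΔIEC, against 113.7, 109.2 and 79.3 TPM in WT. That of 8 smooth muscle markers had another order, at 356.8, 196.6 and 697.3 TPM in TLR4ΔIEC, against 737.1, 315.2 and 280.7 TPM in WT, with TLR4ΔIEC replicate 3 high. Of 6 epithelial markers the sum was 8677, 11070 and 8024 TPM in TLR4ΔIEC, against 6529, 6659 and 6455 TPM in WT, so it was highest where collagen was lowest and the groups did not overlap. Of the smaller lists, 7 markers of telocytes and crypt-base mesenchyme summed to 9.04 to 36.7 TPM in TLR4ΔIEC and 23.8 to 37.2 TPM in WT, and 5 pericyte markers to 9.5 to 40.9 TPM in TLR4ΔIEC and 24.5 to 31.1 TPM in WT. Enteric glia and neuron markers (8 genes) summed to 5.38 to 12.3 TPM in TLR4ΔIEC and 8.22 to 16.0 TPM in WT, and the 2 markers of interstitial cells of Cajal to 4.72 to 11.3 TPM in TLR4ΔIEC and 7.37 to 12.3 TPM in WT. Leukocyte markers summed to 54.0, 7.76 and 71.3 TPM in TLR4ΔIEC, against 22.0, 33.7 and 47.8 TPM in WT. The mesothelial marker Wt1 was listed at 0 in each library labelled TLR4ΔIEC and in WT replicate 3, and the list of 4 mesothelial markers summed to 0.12 to 0.57 TPM in TLR4ΔIEC and 0.14 to 1.18 TPM in WT. Per unit of fibroblast marker level, the collagen sum was 1.91, 2.41 and 1.86 in TLR4ΔIEC, against 2.09, 1.56 and 1.33 in WT, and the groups overlapped. TLR4ΔIEC replicate 2 was the highest library of this ratio. Dcn, among these markers, had 9.44 TPM there, against 89.0 and 45.1 TPM in the other libraries labelled TLR4ΔIEC and 58.9 to 66.0 TPM in WT. The ratio was not computed without Dcn, so the rank of TLR4ΔIEC replicate 2 may rest on this gene. The part of the cell make-up in the collagen levels was not tested.

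**Figure D5:**
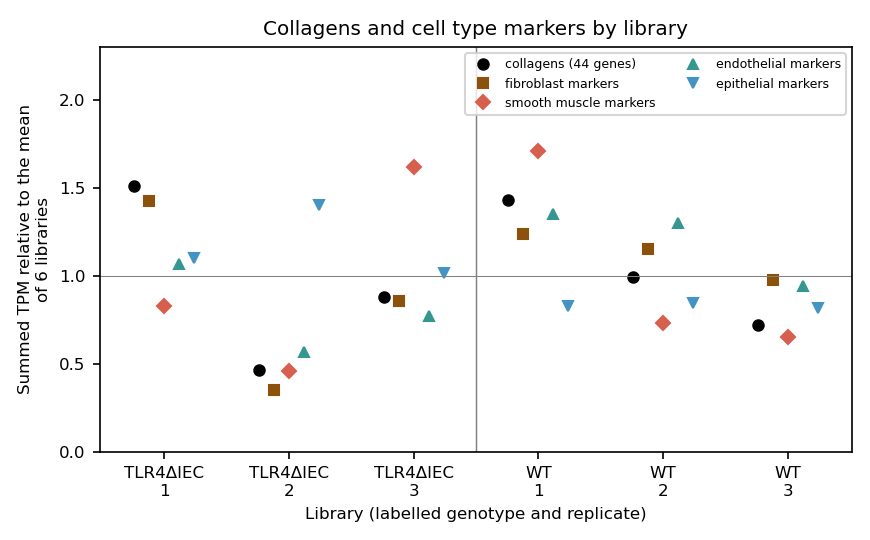
Summed TPM of the 44 collagen genes and of the fibroblast, smooth muscle, endothelial and epithelial marker lists in each library, divided by the mean of the 6 libraries, with libraries labelled TLR4ΔIEC left of WT. In TLR4ΔIEC replicate 2 the collagens and the 3 stromal lists are at their lowest and the epithelial list is at its highest.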

How the data were processed

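RNA was measured in 6 libraries of small intestine, 3 labelled TLR4ΔIEC and 3 WT, grouped by their titles. Per the submitters' processing notes the tools were fastp, HISAT and RSEM, and the build was GRCm38.p5. The authors deposited TPM for every gene in each library, and their 2 columns of group means were not used. TPM sum to the same total in each library, so a gene that takes a large share lowers the others. Read totals are unknown, so counting error has no interval.

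The 13458 genes averaging 1 TPM or more were transformed to log2(TPM + 1). The R package limma (version 3.58.1, R 4.3.3) fitted genotype alone, with trended eBayes, two-sided p-values and a threshold of 0.05 after Benjamini-Hochberg adjustment. This scale understates the change of low genes. The fit was also run on simulated data, with values drawn independently for each gene. Those data do not hold the shifts between libraries that the collagens share, so that run does not speak to them. The members, classes and lists were chosen with earlier results of these data known, so list counts and medians carry no test. Named in full were, per class, the 5 tested members of highest mean TPM and the next 2 by p-value, and per list the 2 highest genes and the smallest p-value. Other members, Col4a6 and the ratios of Col6a3 to Col6a1 and Col5a1 to Col5a2 were added after their values were seen. The symbols Ctage5 and Ctgf matched no gene name in the table. Coordinates are from GENCODE M21 (GRCm38), promoter sequences from RefSeq (GRCm38.p6), and figures were drawn with matplotlib 3.10.9. Alternatives were pseudocounts of 0.1 and 5 TPM, other filters, 4 other scalings (median-of-ratios, quantile, without the 20 highest genes, and without alpha-defensins, genes encoded in mitochondria, and Rn18s, Gphn and Cmss1, here called 18S-like), eBayes without trend or robust, array weights, a replicate block and each library left out.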

Additional observations from a re-analysis of the deposited data

How the results depend on the processing

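No alternative gave a collagen gene an adjusted p under 0.05 in limma, nor did a threshold of 0.1, and the smallest adjusted p over the alternatives was 0.113, for Col23a1 without TLR4ΔIEC replicate 1. The number of collagens with an unadjusted p under 0.05 went to 1, Col23a1, under median-of-ratios scaling, under quantile normalization, with array weights and without alpha-defensin, mitochondrial and 18S-like genes, and was 0 to 5 when single libraries were left out. The 5, without TLR4ΔIEC replicate 1, were Col6a1, Col6a2, Col14a1, Col23a1 and Col6a5. Of the pathway genes 1 passed with array weights, Lama3 at a log2 fold change of 1.35 (limma adjusted p = 0.0499, range over its alternatives 0.0499 to 0.325), and 0 to 1 when single libraries were left out, the 1 being Lamb3 without WT replicate 1 at 2.91 (limma adjusted p = 0.0415, range 0.0415 to 0.377). Over all tested genes the replicate numbers showed no clear pairing of the samples. Deviations from the group means correlated at −0.04, 0.04 and 0.12 for numbers 1, 2 and 3, and not every sample correlated best with its own number. This check cannot exclude a shared batch, and pairing in the collagens alone was not examined. With the replicate block 0 collagens were called, as without it, and the count over all genes was 1 in place of 16. The class medians, class sums and ratios of chains moved by less than the pooled SD within groups under each alternative. Leaving out 1 of 3 libraries can hardly move a group mean by that much, so there this comparison decides nothing. The class sums and medians turned sign without TLR4ΔIEC replicate 2 and, except for the median of the other collagens (−0.0358), without WT replicate 1. Without WT replicate 1 the log2 genotype difference also turned sign for the ratios of Col1a1 to Col1a2 (−0.0717 to 0.0196) and Col4a1 to Col4a2 (0.0881 to −0.0217). With type IV chains alone the basement membrane median was −0.14. Leaving out single libraries moved the medians between −0.61 and 0.30 for the fibrillar class, −0.46 and 0.09 for the basement membrane class and −0.57 and 0.12 for the others. With array weights the sign turned for Col1a2 (0.0297), Col4a5 (0.0312), Col16a1 (0.14), Col12a1 (0.18), Col13a1 (0.15) and Pcolce (0.0817). Under median-of-ratios scaling the sign turned for Col5a1 (−0.15), Col27a1 (−0.0659), Col6a4 (−0.0138), Col6a3 (−0.14) and Tgm2 (−0.16). Under quantile normalization the sign turned for Col5a1 (−0.0319), Col6a4 (−0.0041), Col6a3 (−0.0765), Ppib (−0.041), Sec23a (−0.0508) and Tgm2 (−0.26). Without the 20 highest genes the sign turned for Col5a1 (−0.13), Col27a1 (−0.0439), Col6a3 (−0.12) and Tgm2 (−0.14). Without alpha-defensin, mitochondrial and 18S-like genes the sign turned for Col5a1 (−0.26), Col27a1 (−0.13), Col6a4 (−0.13), Col6a3 (−0.26), Ppib (−0.12), Sec23a (−0.0578), Tgm2 (−0.29) and Pepd (−0.0487). With a pseudocount of 0.1 TPM the sign turned for Col27a1 (−0.001). With a pseudocount of 5 TPM the sign turned for Col16a1 (0.0036) and Col12a1 (0.0035). The cause was not tested beyond what each scaling does by construction. When single libraries were left out, the log2 fold changes that turned sign ranged as follows: Col3a1 −0.77 to 0.0971, Col1a2 −0.65 to 0.40, Col1a1 −0.67 to 0.24, Col5a1 −0.30 to 0.44, Col5a2 −0.57 to 0.11, Col27a1 −0.15 to 0.36, Col4a1 −0.46 to 0.16, Col4a2 −0.48 to 0.0857, Col18a1 −0.55 to 0.17, Col15a1 −0.36 to 0.0328, Col4a5 −0.32 to 0.20, Col6a1 −1.02 to 0.0257, Col6a2 −0.86 to 0.0716, Col6a4 −0.0292 to 0.32, Col6a3 −0.31 to 0.52, Col16a1 −0.30 to 0.37, Col12a1 −0.36 to 0.41, Col13a1 −0.19 to 0.17, P4hb −0.36 to 0.085, Sparc −0.70 to 0.0005, Tgm2 −0.0784 to 0.19, Pcolce −0.46 to 0.37, Dcn −1.51 to 0.0443. Without the filter 44 collagens were fitted and with a mean of at least 5 TPM 12. Tlr4 had no value without TLR4ΔIEC replicate 3. TPM carry no read totals, so depth cannot be weighed, and low members such as Col27a1 and Col4a5 rest on an unknown number of reads.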
